A study of Mus musculus with 6 samples.

Results

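The 9 genes described here encode hydrolases of the lysosome and were picked by gene symbol: Manba, Man2b1, Fuca1, Neu1, Aga, Gaa, Scpep1, Ppt1 and Acp2. Each symbol matched 1 row of the deposited table, so they are 9 of its 53715 genes. The 6 RNA sequencing libraries came from an immortalized mouse podocyte cell line, 3 of them from cells transfected with an siRNA against Tfeb (labelled as TFEB knockdown) and 3 from cells transfected with a scrambled siRNA (labelled WT). Podocytes are the epithelial cells on the outer face of the glomerular filter of the kidney. Cells of both groups had been expanded at 33 °C in 10% serum and interferon-γ. They were then differentiated at 37 °C over 10 to 14 days, with collagen I at 12 mg/ml and the serum lowered to 5%. A knockdown in 1 cell line lowers its target without removing it, and neither the siRNA sequences nor the time from transfection to harvest are given in the sources used here.

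Glycoproteins that reach the lysosome are taken apart from both ends. Exoglycosidases remove the sugars of the glycan chain one after another, and an amidase releases the chain from asparagine. Glycogen that reaches the lysosome is cut to glucose by an acid glucosidase. In the 9 genes, Neu1 encodes the sialidase that takes off terminal sialic acid, Fuca1 the fucosidase, Man2b1 the alpha-mannosidase, Manba the beta-mannosidase that acts near the end of the chain, Aga the amidase that frees the chain from asparagine, and Gaa the acid alpha-glucosidase. The other 3 do not act on glycan or glycogen bonds: Scpep1 encodes a serine carboxypeptidase-like protein, Ppt1 the thioesterase that removes palmitate from proteins, and Acp2 the lysosomal acid phosphatase. Loss of human MANBA, MAN2B1, FUCA1, NEU1, AGA, GAA or PPT1 causes a storage disease, among them Pompe disease for GAA. TFEB is known to bind E-box-like elements of lysosomal promoters, called CLEAR elements, and human GAA, NEU1 and SCPEP1 have been described among its responsive genes. The comparison asks how these transcripts differ when Tfeb is depleted.

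Promoters are shown for the 4 genes that changed, so that their sequence can be set beside the direction of change. They are RefSeq windows of build GRCm38.p6, from 250 bases before to 50 after the gene start, and capitals mark any E-box-like word. The words searched, on both strands and with overlaps allowed, were the core CACGTG, its longer form TCACGTG that holds this core, then TCATGTG, and finally TCACATG. Such a window was found for 8 of the 9 genes, all except Aga. Manba lies at chr3:135485361-135485660 (plus strand), Neu1 at chr17:34931003-34931302 (plus), Scpep1 at chr11:88955393-88955692 (minus) and Fuca1 at chr4:135920476-135920775 (plus).
Manba: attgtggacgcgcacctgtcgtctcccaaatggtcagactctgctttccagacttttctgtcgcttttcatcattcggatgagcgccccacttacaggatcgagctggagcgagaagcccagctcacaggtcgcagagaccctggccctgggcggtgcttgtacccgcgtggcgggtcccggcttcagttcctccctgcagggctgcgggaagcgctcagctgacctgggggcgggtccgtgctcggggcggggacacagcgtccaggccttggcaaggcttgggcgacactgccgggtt
Neu1: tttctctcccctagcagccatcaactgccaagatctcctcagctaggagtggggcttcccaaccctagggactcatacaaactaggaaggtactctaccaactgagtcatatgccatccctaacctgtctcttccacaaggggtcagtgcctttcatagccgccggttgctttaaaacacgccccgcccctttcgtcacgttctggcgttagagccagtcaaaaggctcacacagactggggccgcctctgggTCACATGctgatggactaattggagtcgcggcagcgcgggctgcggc
Scpep1: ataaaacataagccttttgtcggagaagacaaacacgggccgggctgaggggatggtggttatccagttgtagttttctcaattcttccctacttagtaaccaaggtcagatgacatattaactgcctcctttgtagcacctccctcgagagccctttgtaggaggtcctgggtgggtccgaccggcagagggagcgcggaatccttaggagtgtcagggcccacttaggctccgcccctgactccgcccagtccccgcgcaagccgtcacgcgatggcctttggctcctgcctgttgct
Fuca1: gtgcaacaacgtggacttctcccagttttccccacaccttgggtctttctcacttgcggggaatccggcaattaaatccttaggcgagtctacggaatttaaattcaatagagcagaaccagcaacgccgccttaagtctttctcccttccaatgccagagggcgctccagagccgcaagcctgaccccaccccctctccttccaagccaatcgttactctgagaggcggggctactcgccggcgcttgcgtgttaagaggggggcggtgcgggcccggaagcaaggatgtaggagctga

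Of these 4 windows, that of Neu1 alone held one of the words, TCACATG, beginning 3 bases after the gene start. Among the genes that did not pass the test, the windows of Gaa (chr11:119267713-119268012, plus) and Ppt1 (chr4:122835977-122836276, plus) held such words, and those of Man2b1 and Acp2 held none. The stretch around each match is shown with 10 bases on either side, with the matched bases in capitals.
Gaa: ttctgtgcgaTCACGTGtttgactctg
Ppt1: gtccccgcggTCATGTGAttgctaagat

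The Gaa word began 141 bases before the RefSeq start and contained the palindromic core CACGTG, while in Ppt1 the word TCATGTG overlapped, on the opposite strand, with TCACATG; the pair began 13 bases after the start. These distances are from the RefSeq start, which equals the start in the deposited table for Neu1 but lies 76 bases downstream of it for Gaa and 15 bases upstream for Ppt1. From the deposited start, the Gaa word began 65 bases and the Ppt1 words 2 bases before. Thus 3 of 8 genes held at least 1 of the 4 words, against 15.4% of the 8495 tested genes with a window. For the core CACGTG alone it was 1 of 8, against 12.1% of those genes. A match describes the letters of this window and no binding was measured.

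Tfeb itself was lower in the cells given its siRNA. It had 0.639, 0.714 and 0.822 FPKM (fragments per kilobase of gene, scaled by 1 factor per library) in the Tfeb siRNA libraries and 1.80, 2.05 and 2.27 FPKM in the scrambled siRNA libraries. Among its family members, Mitf also fell (log2 fold change -0.69, limma adjusted p = 0.00738), Tfe3 did not pass the test and Tfec lay below the filter on low values. Libraries held 18062898 to 20610888 reads derived from the table, and each of the 9 genes was covered by 695 to 3106 reads in every library. Counting alone then gives an error of 1.79% to 3.79% per library, and the SD over the 3 libraries of a group was 1.67% to 12.4% of the mean. Of the 8 genes used here as podocyte markers, Vim, Nes, Actn4, Synpo, Cd2ap and Podxl averaged above 1 FPKM. The defining slit diaphragm gene Nphs1 and the factor Wt1 averaged under 1 FPKM in both groups. The 8 podocyte markers summed to 862 to 911 FPKM in Tfeb siRNA libraries and 904 to 965 FPKM in scrambled siRNA libraries. Most of each sum came from Vim, Nes and Actn4. Of the 8, Synpo averaged 47.6 ± 1.85 FPKM in Tfeb siRNA libraries and 74.4 ± 5.35 FPKM in scrambled siRNA libraries. Podxl averaged 15.8 ± 1.43 FPKM in Tfeb siRNA libraries and 8.72 ± 0.303 FPKM in scrambled siRNA libraries. Of 5 tubule markers, 3 were well above 1 FPKM (Aqp1, Cdh16 and Lrp2), while Slc34a1 was under 1 FPKM and Umod was at 0 in all libraries. The 5 summed to 235 to 273 FPKM in Tfeb siRNA libraries and 227 to 289 FPKM in scrambled siRNA libraries, most of it from Aqp1. The 4 endothelial markers, of which Emcn was at 0 in all libraries, summed to at most 0.466 FPKM in Tfeb siRNA libraries and 0.535 FPKM in scrambled siRNA libraries. The 5 macrophage and leukocyte markers summed to 6.07 to 7.47 FPKM in Tfeb siRNA libraries and 9.43 to 11.1 FPKM in scrambled siRNA libraries, nearly all of it from Cd68 and Csf1r, with Ptprc and Adgre1 under 0.03 FPKM. Of 4 mesangial and smooth muscle markers, Acta2 and Pdgfrb were well above 1 FPKM, Itga8 was under 1 FPKM, and Des averaged 0.503 ± 0.0824 FPKM in Tfeb siRNA libraries and 1.42 ± 0.209 FPKM in scrambled siRNA libraries. The 4 summed to 1432 to 1455 FPKM in Tfeb siRNA libraries and 1496 to 1609 FPKM in scrambled siRNA libraries, nearly all of it from Acta2. The part of these marker levels in the results was not tested.

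The 9 hydrolase transcripts did not move together after Tfeb siRNA. Manba and Neu1 rose, Scpep1 and Fuca1 fell, and Man2b1, Gaa, Ppt1, Acp2 and Aga did not pass the test. All 9 passed the filter of a mean of 1 FPKM. The 4 genes called (adjusted p below 0.05 in limma, adjusted over all 12257 tested genes) are 44.4% of the 9, against 33.3% of all tested genes. The 2 higher genes stand against a background of 16.9% and the 2 lower genes against 16.4%. The median log2 fold change was 0.08 for the 9 genes and 0.02 for all tested genes, and the median size of the change, regardless of sign, was 0.18 for the 9 genes and 0.19 for all tested genes. In bulk RNA, a smaller share of cells that express a gene and less of its RNA per cell cannot be told apart.

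**Figure D1:**
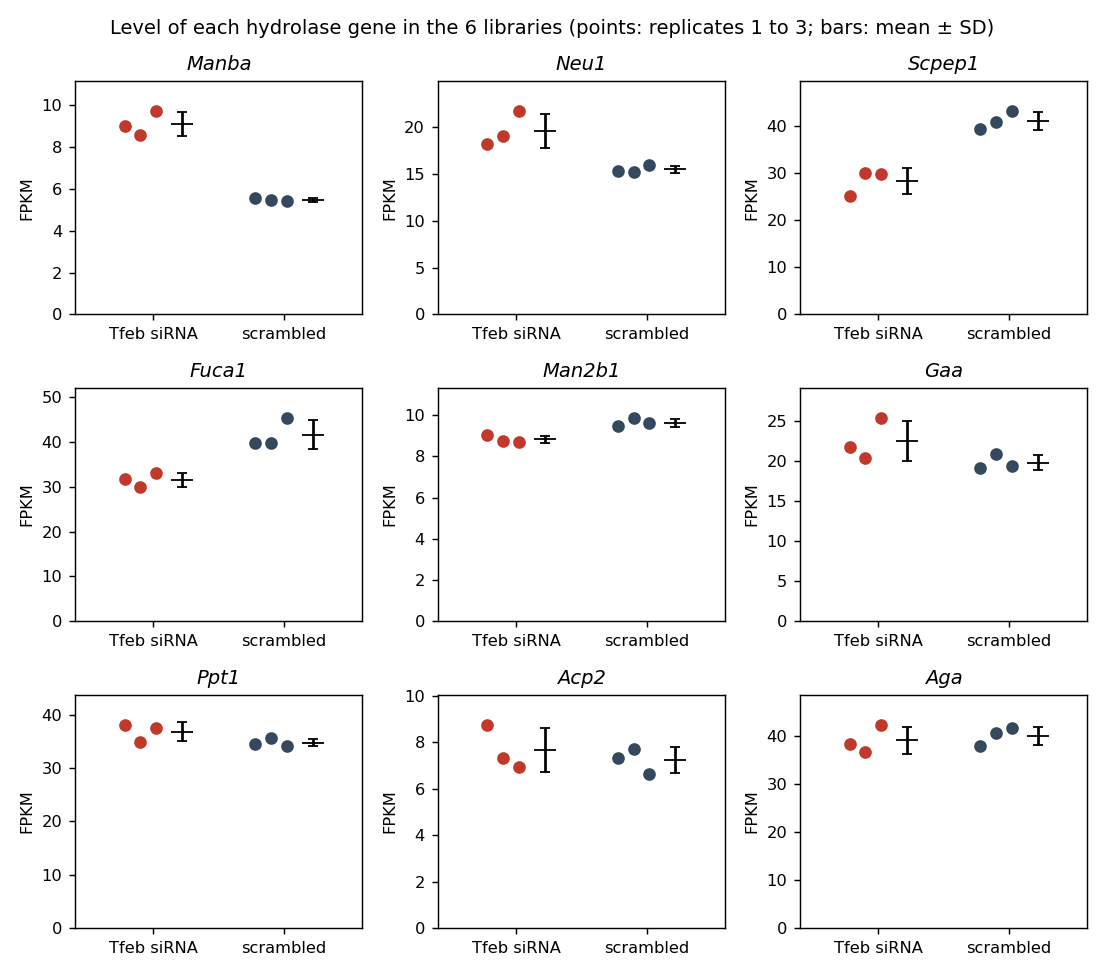
FPKM of the 9 hydrolase genes (vertical axes from 0) in each Tfeb siRNA library (left in each panel) and each scrambled siRNA library (right); points are replicates 1 to 3 and bars the mean ± SD, n = 3. Manba and Neu1 lie higher and Scpep1, Fuca1 and Man2b1 lower in all 3 Tfeb siRNA libraries than in any scrambled siRNA library, whereas the groups overlap for Gaa, Ppt1, Acp2 and Aga.

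Manba (ENSMUSG00000028164, chromosome 3, 135485611 to 135571404, plus strand, mm10) changed more than any other of the 9. Tfeb siRNA replicates 1, 2 and 3 measured 9.0, 8.56 and 9.71 FPKM, against 5.58, 5.46 and 5.41 FPKM in scrambled siRNA replicates 1, 2 and 3. Every Tfeb siRNA library was above every scrambled siRNA library. The scrambled siRNA values lay close together, with an SD of 1.67% of the mean. That is below the smallest counting error of the 9 genes (1.79%), so it understates the spread between libraries. The mean was 1.66-fold higher (9.09 ± 0.579 against 5.48 ± 0.0914 FPKM, SD, n = 3 each), with a log2 fold change of 0.68 (SE 0.06, 95% interval 0.53 to 0.83, limma adjusted p = 0.000607). Of all tested genes, 5.78% had a log2 fold change at least this large in either direction. An exact two-sided permutation test gave p = 0.1, the smallest that 3 against 3 libraries can give, for Manba and for each of the other genes whose groups did not overlap.

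Man2b1 (chromosome 8, 85083270 to 85098282, plus strand), which encodes the alpha-mannosidase that acts on the same glycans before beta-mannosidase, was not higher. It had 9.02, 8.74 and 8.72 FPKM in Tfeb siRNA libraries and 9.47, 9.85 and 9.60 FPKM in scrambled siRNA libraries. All 3 Tfeb siRNA values were lower, but the difference was small, with a log2 fold change of -0.12 (SE 0.05, 95% interval -0.24 to -0.004), and it missed the threshold after adjustment over all tested genes (limma adjusted p = 0.103). The ratio of Manba to Man2b1, both per length, was 0.998, 0.980 and 1.11 in the Tfeb siRNA libraries and 0.590, 0.554 and 0.563 in the scrambled siRNA libraries (exact permutation p = 0.1). This pair was set side by side after its values were seen. Every Manba value was higher, and every Man2b1 value lower, in Tfeb siRNA libraries than in any scrambled siRNA library. The ratio therefore could not overlap between the groups, and its permutation p adds nothing to the values of each gene.

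Neu1 (ENSMUSG00000007038, chromosome 17, 34931253 to 34935953, plus strand) was the other gene that rose. Its values were 18.2, 19.0 and 21.7 FPKM in Tfeb siRNA replicates 1, 2 and 3, against 15.3, 15.2 and 15.9 FPKM in scrambled siRNA replicates 1, 2 and 3. The groups did not overlap, and Tfeb siRNA replicate 3 was the highest library. The mean was 1.27-fold higher (19.6 ± 1.82 against 15.5 ± 0.382 FPKM, SD, n = 3 each), a log2 fold change of 0.33 (SE 0.07, 95% interval 0.16 to 0.50, limma adjusted p = 0.0130). Without that library the log2 fold change was 0.26 and the limma adjusted p was 0.0255.

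The sialidase is active in a complex with the protective protein cathepsin A, encoded by Ctsa, whose transcript did not pass the test. Ctsa had 27.0, 23.9 and 28.7 FPKM in Tfeb siRNA libraries and 25.5, 27.5 and 25.7 FPKM in scrambled siRNA libraries, and these groups overlapped (limma log2 fold change 0.01, SE 0.08, adjusted p = 0.923). The ratio of Neu1 to Ctsa, both per length, was 0.675, 0.795 and 0.756 in Tfeb siRNA libraries and 0.598, 0.554 and 0.619 in scrambled siRNA libraries (exact permutation p = 0.1). This ratio did not overlap between the groups.

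Scpep1 (ENSMUSG00000000278, chromosome 11, 88924020 to 88955465, minus strand) fell most. Tfeb siRNA replicates 1, 2 and 3 gave 25.2, 30.0 and 29.7 FPKM, against 39.3, 40.9 and 43.1 FPKM for scrambled siRNA replicates 1, 2 and 3. The groups were well apart, and Tfeb siRNA replicate 1 was the lowest library. Tfeb siRNA libraries averaged 0.689 of the level of scrambled siRNA libraries (28.3 ± 2.67 against 41.1 ± 1.89 FPKM, SD, n = 3 each), with a log2 fold change of -0.53 (SE 0.08, 95% interval -0.72 to -0.35, limma adjusted p = 0.00293). An antisense gene, Scpep1os, shares 96 exonic bases with Scpep1, and since the use of strand in counting is not given, reads in that stretch cannot be told apart.

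Fuca1 (ENSMUSG00000028673, chromosome 4, 135920735 to 135940311, plus strand) also fell. Values of 31.7, 29.9 and 33.1 FPKM in Tfeb siRNA replicates 1, 2 and 3 stood against 39.9, 39.7 and 45.3 FPKM in scrambled siRNA replicates 1, 2 and 3. Each Tfeb siRNA library lay under each scrambled siRNA library, and scrambled siRNA replicate 3 was the highest. Tfeb siRNA libraries averaged 0.758 of the level of scrambled siRNA libraries (31.6 ± 1.59 against 41.6 ± 3.21 FPKM, SD, n = 3 each), and the log2 fold change was -0.39 (SE 0.07, 95% interval -0.56 to -0.23, limma adjusted p = 0.00608). Its relative Fuca2, which encodes another fucosidase, was lower too (log2 fold change -0.27, SE 0.07, limma adjusted p = 0.0205), but its call did not hold when Tfeb siRNA replicate 2, Tfeb siRNA replicate 3 or scrambled siRNA replicate 3 was left out (adjusted p = 0.0514 to 0.0745).

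Gaa (chromosome 11, 119267887 to 119285454, plus strand), the gene of lysosomal glycogen breakdown, had 21.8, 20.4 and 25.3 FPKM in Tfeb siRNA libraries and 19.1, 20.9 and 19.3 FPKM in scrambled siRNA libraries. Tfeb siRNA replicates 1 and 3 exceeded the scrambled siRNA libraries and replicate 2 lay among them. The log2 fold change of 0.18 (SE 0.09) missed the threshold (limma adjusted p = 0.155), and its 95% interval was -0.02 to 0.38. This interval held the estimated log2 fold change of Neu1 but not that of Manba, Fuca1 or Scpep1.

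Aga (chromosome 8, 53511727 to 53523421, plus strand) had 38.3, 36.6 and 42.3 FPKM in Tfeb siRNA libraries and 38.0, 40.5 and 41.6 FPKM in scrambled siRNA libraries. The ranges overlapped almost fully (log2 fold change -0.04, 95% interval -0.20 to 0.12, limma adjusted p = 0.717). Ppt1 (chromosome 4, 122836242 to 122859175, plus strand) had 38.0, 34.8 and 37.5 FPKM in Tfeb siRNA libraries and 34.5, 35.5 and 34.2 FPKM in scrambled siRNA libraries. Here too the groups overlapped (log2 fold change 0.08, 95% interval -0.04 to 0.21, limma adjusted p = 0.282). Acp2 (chromosome 2, 91202885 to 91214098, plus strand) had 8.74, 7.34 and 6.94 FPKM in Tfeb siRNA libraries and 7.34, 7.72 and 6.61 FPKM in scrambled siRNA libraries. Tfeb siRNA replicate 1 was high and the other libraries were mixed (log2 fold change 0.08, 95% interval -0.15 to 0.31, limma adjusted p = 0.577). Without that library the log2 fold change of Acp2 was -0.01. Acp2 shares 652 exonic bases with the opposite-strand gene Ddb2 and Ppt1 shares 129 with Cap1, so part of their reads may belong to those neighbours.

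**Figure D2:**
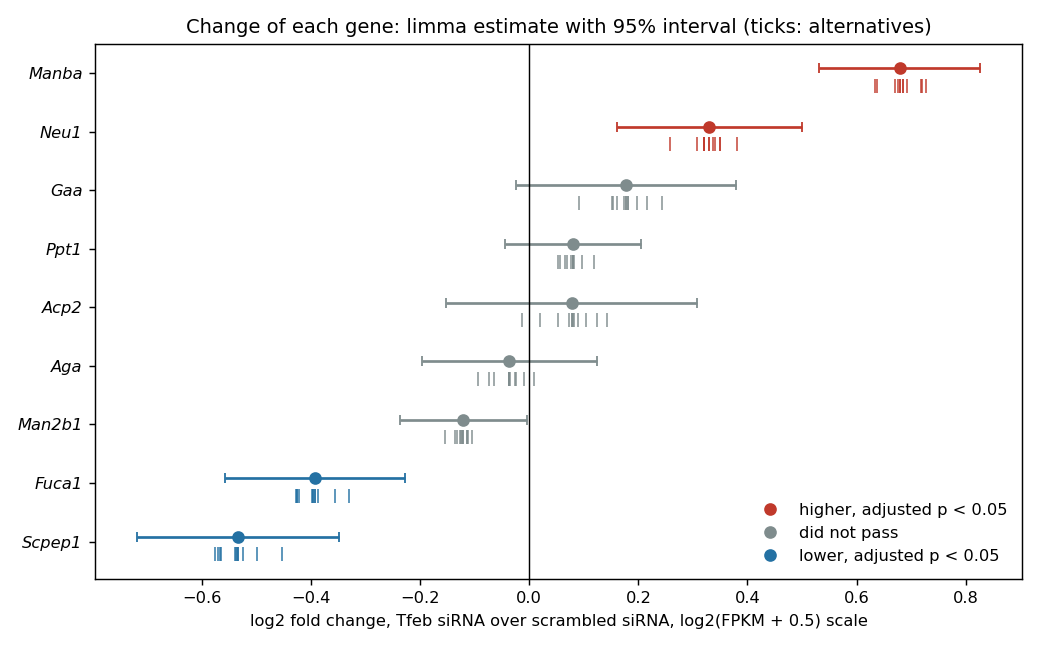
Log2 fold change of each of the 9 genes (horizontal axis, Tfeb siRNA over scrambled siRNA, log2(FPKM + 0.5) scale); points and bars are the limma estimate and its 95% interval, and the ticks under each are the 12 alternative analyses. Manba at 0.68 and Neu1 at 0.33 lie right of 0 and Fuca1 at -0.39 and Scpep1 at -0.53 left of 0 in every alternative, while ticks of Acp2 and Aga fall on both sides.

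The calls of the 4 changed genes held in the 12 alternative analyses that were run. Manba, Neu1, Scpep1 and Fuca1 kept direction and adjusted p below 0.05 in all 12 alternatives, which include leaving out each library in turn, the replicate number as a block, and limma voom on derived reads. The highest adjusted p among them was 0.0427, for Neu1 without scrambled siRNA replicate 2. Groups did not overlap for 5 of the 9 genes (55.6%), the 4 called genes and Man2b1, against 48.7% of all tested genes.

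**Figure D3:**
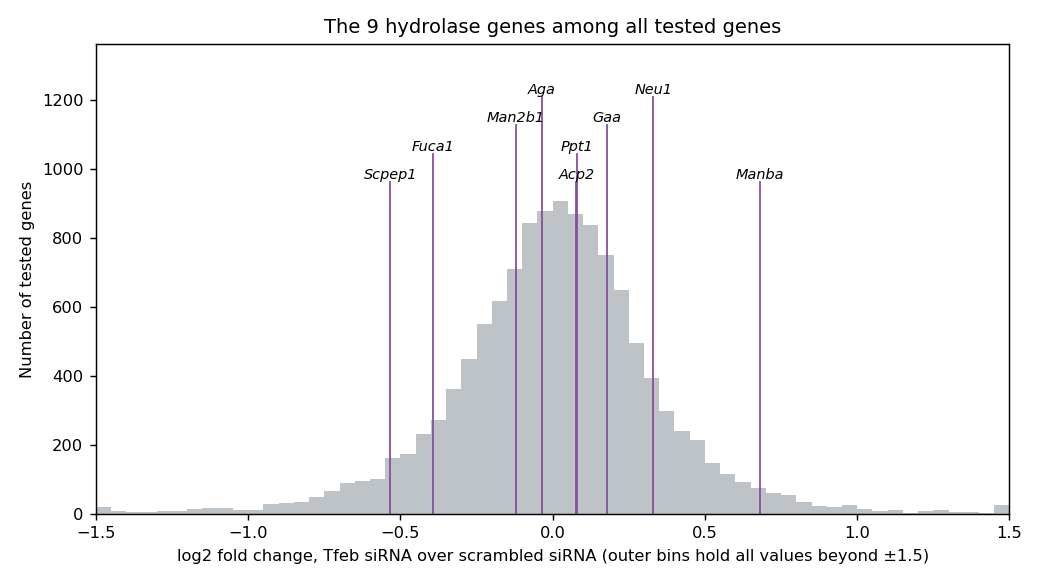
Number of tested genes (vertical axis) by log2 fold change (horizontal axis, Tfeb siRNA over scrambled siRNA) for all 12257 tested genes, with a line for each of the 9 hydrolase genes. The 9 genes spread over both sides of the distribution, from Scpep1 at -0.53 to Manba at 0.68.

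The levels of the 9 genes spanned a wide range and their order differed between the groups. In Tfeb siRNA libraries Aga (39.1 ± 2.89 FPKM) and Ppt1 (36.8 ± 1.74 FPKM) came first and overlapped, followed by a run of neighbours that overlapped (Fuca1, Scpep1, Gaa and Neu1), and then by Manba (9.09 ± 0.579 FPKM), Man2b1 (8.82 ± 0.168 FPKM) and Acp2 (7.67 ± 0.948 FPKM), which overlapped with one another in that order. In scrambled siRNA libraries Fuca1 (41.6 ± 3.21 FPKM), Scpep1 (41.1 ± 1.89 FPKM) and Aga (40.0 ± 1.85 FPKM) came first and overlapped, and below them Ppt1, Gaa, Neu1, Man2b1, Acp2 and Manba followed with no overlap between neighbours. Manba overlapped with Man2b1 in Tfeb siRNA libraries and was the lowest of the 9 in scrambled siRNA libraries. Among all tested genes, the mean over the 6 libraries put Aga at percentile 88.5 and Manba at percentile 47.3. Summed over the 9 genes the level was 195 to 215 FPKM in Tfeb siRNA libraries and 208 to 221 FPKM in scrambled siRNA libraries, and these ranges overlapped.

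The order depends on the length by which reads are divided. The deposited lengths equal the union of all exons in GENCODE M21 for each of the 9 genes, which is 2.10 times the longest protein-coding transcript for Man2b1, 1.97 times for Aga and 1.90 times for Manba, whereas the lengths are equal for Scpep1. Per length of the longest coding transcript, Aga led alone in both groups (76.8 ± 5.69 FPKM in Tfeb siRNA libraries and 78.7 ± 3.64 FPKM in scrambled siRNA libraries). On that scale Acp2 was the lowest gene in both groups (8.55 ± 1.1 FPKM in Tfeb siRNA libraries and 8.04 ± 0.626 FPKM in scrambled siRNA libraries), below Manba (17.2 ± 1.1 FPKM in Tfeb siRNA libraries and 10.4 ± 0.173 FPKM in scrambled siRNA libraries). Ratios between groups within a gene are not touched by the choice of length.

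The 3' UTRs, taken as the longest one annotated per gene, were searched on the transcript strand for 8 heptamers, 4 whose holders were more often lower and 4 whose holders were more often higher in these data. They were chosen on these same fold changes and are no independent evidence. Of the 9 genes, Scpep1, Gaa and Acp2 (3 of 9) held at least 1 of the 4 falling heptamers, against 30.9% of the 10473 genes searched. None of the 9 held any of the 4 rising heptamers, which only 7.84% of the genes searched held. Scpep1 held CTACATA, whose 1050 holders were lower in 34.7% of cases, against 16.0% of the other genes searched. The site is shown as the one such word in a gene that fell, with the heptamer in capitals.
Scpep1: tcttttatttgCTACATAtatatttttac

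Fuca1, which also fell, held none of the 8 heptamers in its 1097-base 3' UTR. Gaa held GGCCATG at 2 places and Acp2 held GGCCATG as well as GCCATGA, and neither gene passed the test. Manba and Neu1, which rose, held none. The part of these words in the changes was not tested.

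Of 9 other tested enzymes of glycoprotein breakdown or other sialidases (Neu2 and Neu4 lay below the filter), 2 rose, 2 fell and 5 did not pass. Their median log2 fold change was 0.01, and 33.3% of all tested genes were called in either direction. Hexa, the alpha subunit of beta-hexosaminidase, averaged 49.1 ± 4.02 FPKM in Tfeb siRNA libraries and 40.3 ± 3.84 FPKM in scrambled siRNA libraries (limma log2 fold change 0.28, adjusted p = 0.0466), but its call was lost without any 1 of the 6 libraries (adjusted p = 0.0532 to 0.129). Glb1, beta-galactosidase, averaged 11 ± 0.387 FPKM in Tfeb siRNA libraries and 9.46 ± 0.254 FPKM in scrambled siRNA libraries (log2 fold change 0.20, adjusted p = 0.0250) and its call did not hold when Tfeb siRNA replicate 1, Tfeb siRNA replicate 3, scrambled siRNA replicate 2 or scrambled siRNA replicate 3 was left out (adjusted p = 0.0610 to 0.0892). Neu3, the plasma membrane sialidase, had 0.778 ± 0.0781 FPKM in Tfeb siRNA libraries and 1.61 ± 0.205 FPKM in scrambled siRNA libraries (log2 fold change -0.72, SE 0.13, limma adjusted p = 0.00710). Neu3 passed the filter on low values only through the scrambled siRNA libraries, where it was high, and without the filter its adjusted p was 0.0253.

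Of 12 tested genes of glycogen metabolism outside the lysosome, 2 rose, 4 fell and 6 did not pass (median log2 fold change -0.07), against 16.9% higher and 16.4% lower over all tested genes, and 7 more lay below the filter. The genes that fell were Gyg, Stbd1, Pygb and Phka1, of which Phka1 lost its call when Tfeb siRNA replicate 2, Tfeb siRNA replicate 3, scrambled siRNA replicate 1 or scrambled siRNA replicate 3 was left out (adjusted p = 0.0766 to 0.0892). Pygb (limma log2 fold change -0.32, adjusted p = 0.00406) kept its call in all 12 alternatives. Pygb and Phka1 are named here only to complete this count, after their values were seen. Gyg, glycogenin, which primes glycogen, had 16.2 ± 0.967 FPKM in Tfeb siRNA libraries and 25.3 ± 0.844 FPKM in scrambled siRNA libraries (log2 fold change -0.63, SE 0.06, limma adjusted p = 0.000703). The 2 genes that rose were Ppp1r3d, a glycogen-targeting phosphatase subunit (log2 fold change 0.59, adjusted p = 0.0141), and Pygm, the muscle phosphorylase (0.50, adjusted p = 0.0240). Pygm passed the filter only through the Tfeb siRNA libraries, with 1.41 ± 0.156 FPKM there and 0.851 ± 0.0582 FPKM in scrambled siRNA libraries, and it missed the threshold without the filter (adjusted p = 0.0662). It also lost its call without each library except Tfeb siRNA replicate 1 (adjusted p = 0.0540 to 0.0806). Stbd1, known to link glycogen to autophagosomes, had 3.79 ± 0.601 FPKM in Tfeb siRNA libraries and 5.09 ± 0.430 FPKM in scrambled siRNA libraries (log2 fold change -0.39, adjusted p = 0.0403), and lost its call without each library except Tfeb siRNA replicate 2 (adjusted p = 0.0514 to 0.121) and with the replicate number as a block (0.0581).

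**Figure D4:**
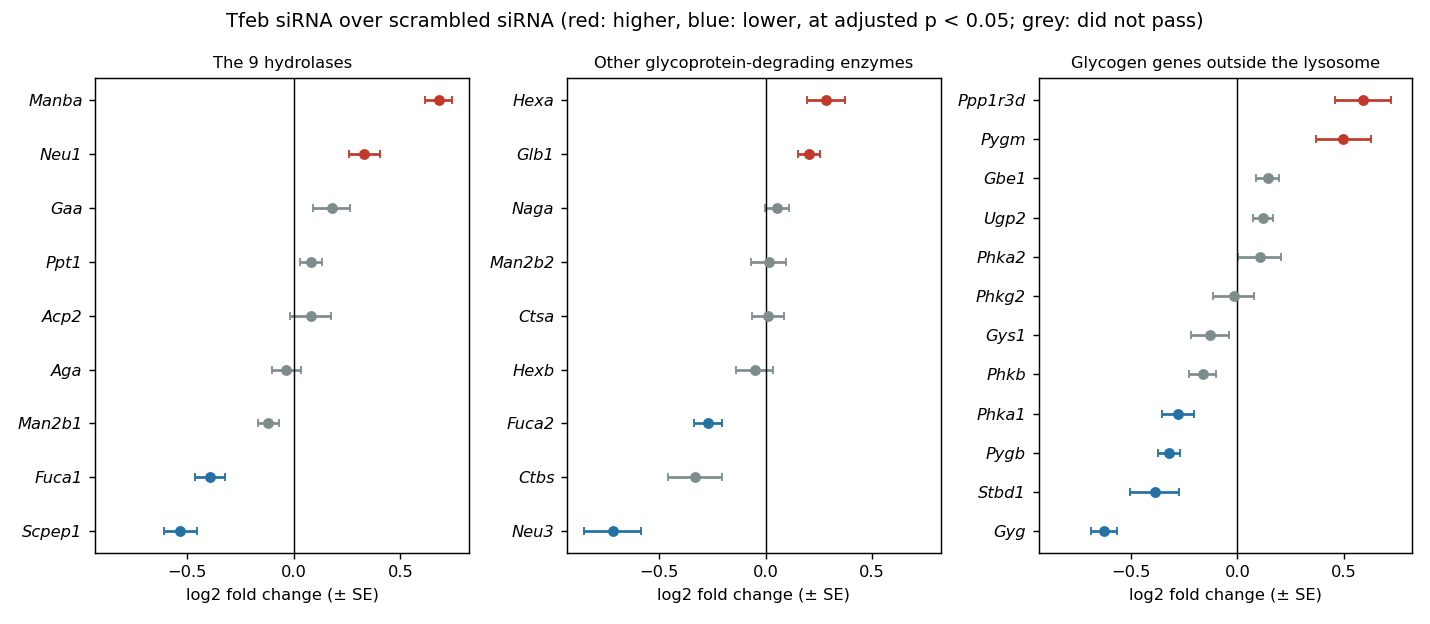
Log2 fold change (horizontal axes, Tfeb siRNA over scrambled siRNA, bars SE) of the 9 hydrolases, the other glycoprotein-degrading enzymes with the sialidase Neu3, and the glycogen genes outside the lysosome. Red genes rose, blue genes fell and grey genes did not pass: 2, 2 and 5 of the 9 hydrolases, 2, 2 and 5 of 9 other enzymes, and 2, 4 and 6 of 12 glycogen genes.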

How the data were processed

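RNA was extracted with TRIzol and made into Illumina libraries, per the labels' protocols, and the submitters' processing notes name mm10 as build; not given in the sources used here are the aligner, the counter and its strand setting. The authors deposited FPKM values, 1 column per library, with gene lengths, per the file headers (0 columns of other samples). Multiplying by gene length gave whole multiples of 1 step per library for 100% of values (tolerance 1e-06), hence whole reads and the depth used for scaling. That depth was not the total of derived reads. It was 20835912 against 20143910 reads in scrambled siRNA replicate 1 and 19322103 against 19702898 in Tfeb siRNA replicate 3.

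The groups were compared with limma 3.58.1 (R 4.3.3) on log2(FPKM + 0.5), eBayes with trend, two-sided, over genes with a mean of at least 1 FPKM, with Benjamini-Hochberg adjustment over all of them; the fit was tested on simulated data. On this scale the change of low genes is understated. Errors are SD over 3 libraries or SE. The labels do not say whether replicates were separate cultures; if not, the spread behind the p-values is technical. No batch or date is given. Every pair of libraries differed by more than sampling noise (chi-square per gene at least 4.40). Residuals of same-numbered libraries of the groups correlated at 0.382, 0.129 and 0.166, all over 0.1. Tfeb siRNA replicate 2 with scrambled siRNA replicate 3 was also over 0.1, at 0.106. The other unlike-numbered pairs lay from -0.239 to 0.0996. These values do not settle whether the numbers pair libraries. The main fit and the exact test took libraries as unpaired, and a block for the number was an alternative. Named genes were all 9 hydrolases, the Tfeb family, Ctsa and in each other list up to 2 called genes with the largest change in each direction; a few genes first drawn for the lists are not reported here, belong to no list used and enter no count. The genes, lists and sequence words were chosen with earlier results of these data known. Promoters came from RefSeq; 3' UTRs, overlaps and transcript lengths from GENCODE M21 (mm10), where each of the 9 genes had the deposited ends. Alternatives were pseudocounts of 0.1 and 1, no filter, TPM, the block, each library left out, and, added after seeing the data, voom and another gene length.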

Additional observations from a re-analysis of the deposited data

How the results depend on the processing

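Under the 12 alternatives the calls of Manba, Neu1, Scpep1 and Fuca1 held, so 2 of the 9 genes were higher and 2 lower each time. Over those alternatives the log2 fold change ran from 0.63 to 0.73 for Manba, 0.26 to 0.38 for Neu1, -0.58 to -0.45 for Scpep1 and -0.43 to -0.33 for Fuca1. Leaving out 1 library gave 1412 to 1703 higher and 1371 to 1720 lower genes of all tested, against 2075 higher and 2005 lower with all 6. With the replicate number as a block, 2542 were higher and 2386 lower, and of the genes named in the text Stbd1 (adjusted p = 0.0581) and Man2c1 (0.0611) lost their calls; the block changed no other call among them. Without the filter Hexa, Phka1, Pygm, Stbd1, Amdhd2, Ganc and Man2c1 lost theirs (0.0662 to 0.116), with TPM Glb1 (0.0741) and Man2c1 (0.0893), and with voom Amdhd2 (0.0611). With 1 library left out, the log2 fold change of Acp2 lay between -0.014 and 0.14, negative without Tfeb siRNA replicate 1, that of Aga between -0.094 and 0.0083, positive without Tfeb siRNA replicate 2, and that of Ctsa between -0.046 and 0.083, negative without replicate 1 or 3 of either group. Ctsa was also negative with TPM (-0.017). None of these 3 genes passed the test in any alternative. The causes were not tested. The deposited unit is FPKM, and the planned count models (edgeR and DESeq2) were not run, although the derived reads could have been given to them. Limma voom on those reads was run in their place.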

Other observations

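Of 10 tested relatives of the 9 genes (Mgam and Acp5 lay below the filter), 1 rose, 1 fell and 8 did not pass, against 33.3% of all tested genes called. Ganab, the alpha subunit of glucosidase II, a relative of Gaa that trims new glycoproteins in the endoplasmic reticulum, had 158 ± 5.63 FPKM in Tfeb siRNA libraries and 85.7 ± 5.48 FPKM in scrambled siRNA libraries (log2 fold change 0.88, SE 0.06, limma adjusted p = 0.000311). Its adjusted p stayed at or below 0.00223 when any 1 library was left out. Ganc, another relative of Gaa, was lower (log2 fold change -0.31, adjusted p = 0.0334) and lost its call without any 1 library (adjusted p = 0.0545 to 0.0970).

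Of 10 tested genes that handle glycans and free sugars in the cytosol, 2 were higher, 2 were lower and 6 did not pass, against 33.3% of all tested genes called. Gne, which starts sialic acid synthesis, had 4.49 ± 0.101 FPKM in Tfeb siRNA libraries and 6.29 ± 0.610 FPKM in scrambled siRNA libraries (log2 fold change -0.44, SE 0.08, limma adjusted p = 0.00560). Ngly1, which strips glycans from misfolded glycoproteins, had 4.27 ± 0.256 FPKM in Tfeb siRNA libraries and 5.51 ± 0.0182 FPKM in scrambled siRNA libraries. At no more than 871 reads per library, that scrambled siRNA SD is below what counting alone gives. The log2 fold change of Ngly1 was -0.34 (limma adjusted p = 0.00789). Amdhd2 (0.28, adjusted p = 0.0314) lost its call without any 1 library (adjusted p = 0.0505 to 0.0961), and Man2c1 (0.29, adjusted p = 0.0481) without each library except Tfeb siRNA replicate 3 (adjusted p = 0.0791 to 0.130) and with the replicate number as a block (0.0611).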
